A study of Mus musculus with 23 samples.

Results

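Fn14, the receptor encoded by Tnfrsf12a, and components of the noncanonical NF-kappaB pathway were followed in colon RNA of mice. The mice were either given TNBS to cause chronic colitis or not given it. The genes were chosen by name and number 10: the receptors Tnfrsf12a and Cd40, the adaptors Traf1, Traf2 and Traf3, the ubiquitin ligase Birc3, the kinase Map3k14, the subunits Nfkb2 and Relb, and the inhibitor Nfkbia. Of these 10, 9 were measured by a probe set annotated to that gene alone, among 18194 genes measured in all, and they had 20 such probe sets together. No value of Traf3 is analysed here. A gene's main value was that of its brightest probe set by mean over the 23 arrays, and its other probe sets are given beside it.

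Each of the 23 arrays held RNA of whole colon from BALB/c mice. The groups were Fn14 KO with TNBS (n = 7), Fn14 KO without TNBS (n = 5), wild type (WT) with TNBS (n = 6) and WT without TNBS (n = 5). TNBS, a hapten, causes colitis when instilled into the rectum with ethanol. According to the labels' protocols, it was given at 0.2% over 6 weeks in volumes of 1 to 2 ul per g, and colons were collected 3 days after the last dose. The labels used here do not say whether mice without TNBS received the solvent, how the Fn14 allele was made, in which cells it is absent, or how old the mice were. Nor do they say that each array was a separate mouse, and p-values therefore reflect the spread among these samples only.

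Fn14 binds TWEAK, a cytokine of the TNF family, and passes the signal on through TRAF adaptors. In resting cells a complex of TRAF2, TRAF3 and the cIAP ubiquitin ligases keeps the kinase NIK, encoded by Map3k14, at a low level by degrading the protein. Receptors such as Fn14, CD40 and the lymphotoxin beta receptor release NIK from this complex, and NIK then drives the processing of the Nfkb2 product p100 to p52, which acts with RelB. The pathway is known for building lymphoid tissue and for the survival of B cells, and Fn14 is known to be induced in injured tissue. NIK degradation and p100 processing are steps of proteins, which an RNA array does not measure.

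The deposited values are on a log2 scale and ranged from 2.17 to 15.98, with 27.9% of them at the lowest value, where differences are understated. Arrays of 1 group correlated at 0.989 to 0.998 over genes. Markers of colon epithelium, the labelled tissue, averaged 13.06 to 13.30 on every array (8 genes). Markers of skeletal muscle, which colon epithelium lacks, averaged 5.02 to 8.56 in KO with TNBS, 5.37 to 8.44 in KO without TNBS, 3.37 to 6.80 in WT with TNBS and 3.13 to 4.84 in WT without TNBS (6 genes). Levels are compared within a probe set and never between probe sets, and all values are only as precise as 5 to 7 arrays per group allow. In whole colon, fewer cells of a type and less RNA per cell cannot be told apart.

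Of the 9 members, Tnfrsf12a itself had the largest log2 difference between the genotypes, with TNBS and without. It is the gene knocked out, so its calls between KO and WT follow from the design and say nothing about the other members. With TNBS, KO colon was lower than WT colon in 3 of 9 members, Tnfrsf12a, Cd40 and Traf2, where 6.72% of all genes were lower at an adjusted p under 0.05 (limma), and higher in none, where 3.73% of all genes were higher. Without TNBS, KO colon was lower in Tnfrsf12a, where 1.91% of all genes were lower, and higher in Relb, where 2.92% were higher. In KO colon TNBS raised 1 of 9 members, Nfkbia, where it raised 4.08% of all genes, and 1 call is the smallest count above 0. In WT colon it raised 3 of 9, Cd40, Birc3 and Tnfrsf12a, where it raised 10.2% of all genes. No member fell with TNBS in KO colon, where 4.47% of all genes fell, or in WT colon, where 6.27% did. At an unadjusted p under 0.05, TNBS effects numbered 2 of 9 in KO colon and 7 of 9 in WT colon, where 8 of the 9 had a positive log2 fold change, so members that did not pass are not shown to be unchanged. Differences between KO and WT at that level numbered 3 with TNBS and 4 without. The share of all genes at an unadjusted p under 0.05 was not counted in any comparison. Counts at that level, here and below, are therefore not set against all genes and are not read as a trait of the members or lists. The median log2 fold change over the 9 members was -0.15 between KO and WT with TNBS, 0.05 between them without, -0.04 with TNBS in KO colon and 0.19 in WT colon, where that of all genes was 0.00 each time. Each group enters more than 1 of these comparisons, so their calls share arrays.

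**Figure D1:**
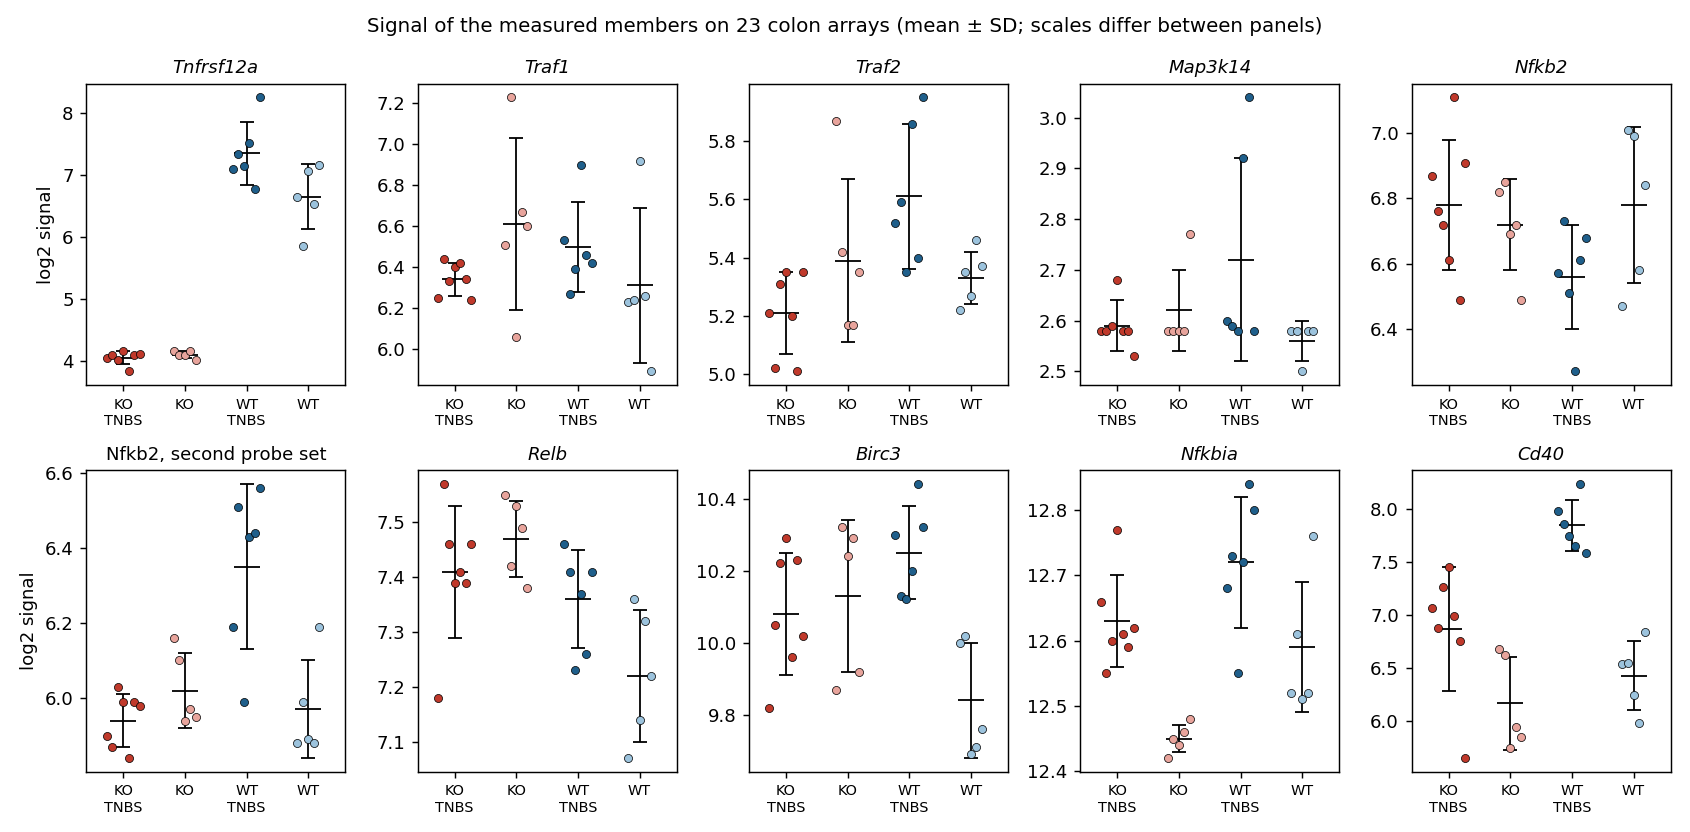
Log2 signal of the 9 measured members by group, from left to right KO with TNBS, KO without TNBS, WT with TNBS and WT without TNBS, with a separate panel for the second probe set of Nfkb2; points are arrays, and bars are the mean ± SD. Tnfrsf12a lies between 3.84 and 4.17 on every KO array and between 5.86 and 8.25 on every WT array, and Cd40 is highest in WT colon with TNBS.

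The difference between the TNBS effects of the genotypes, KO effect minus WT effect, was tested on its own. By limma 0 of 9 members passed, where 2.00% of all genes did. The unadjusted p was under 0.05 for 4 of the 9 (Birc3, Traf2, Tnfrsf12a and Relb), and with limma's trend and robust options 0 passed as well. Tnfrsf12a is the gene knocked out, and its KO signal lay low with TNBS and without, so its difference is mostly its WT effect. The median difference was -0.46 over the 9 members and 0.00 over all genes. Where a member passed in WT colon and not in KO colon, the genotypes are thus not shown to differ in their TNBS effect.

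**Figure D2:**
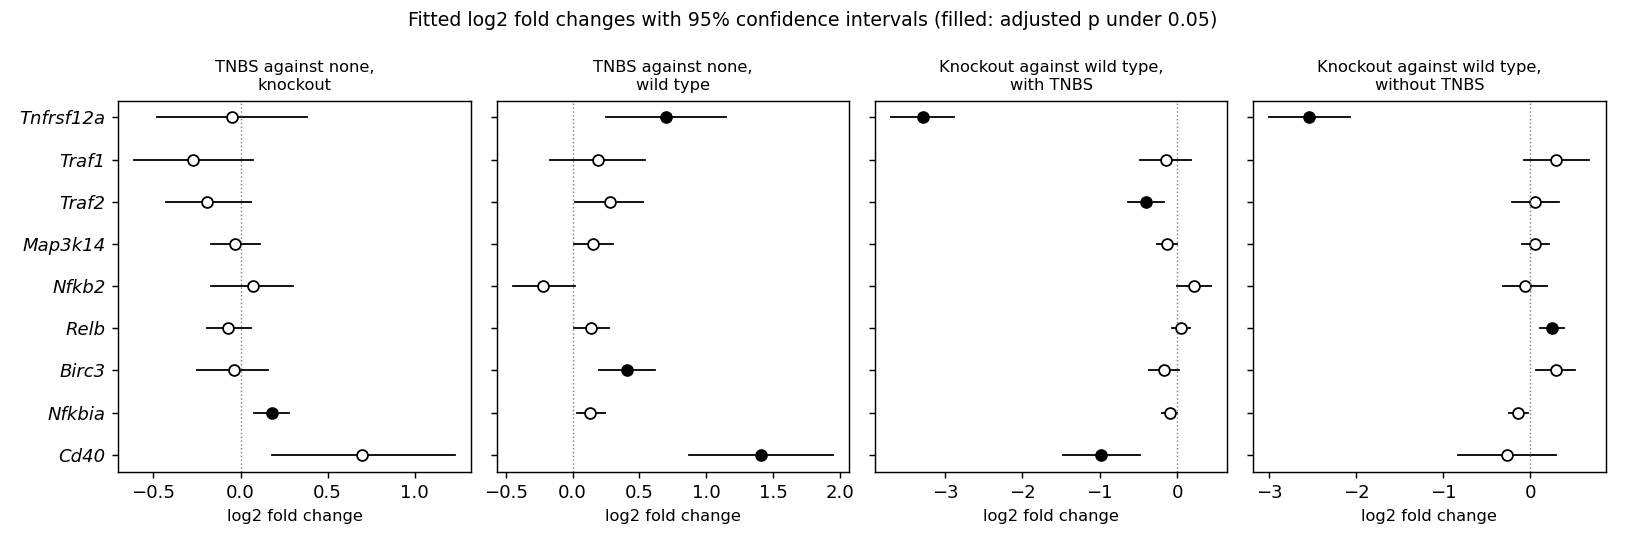
Fitted log2 fold changes of the 9 members, with 95% confidence intervals, in the 4 comparisons; filled points had an adjusted p under 0.05 over all genes. Tnfrsf12a stands far left in both genotype comparisons at -3.29 and -2.54, and Cd40 stands furthest right with TNBS in WT at 1.41.

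Among the receptors, Tnfrsf12a was low on all KO arrays. Its log2 signal was 3.84 at the lowest, 4.11 at the median and 4.17 at the highest in KO colon with TNBS. Without TNBS, the 5 KO arrays had 4.17, 4.10, 4.11, 4.17 and 4.03. The KO groups overlapped, and 1 KO array with TNBS, at 3.84, lay below all KO arrays without. In WT colon with TNBS the lowest value was 6.77, the median 7.24 and the highest 8.25. Without TNBS, the 5 WT arrays had 6.64, 5.86, 7.06, 6.53 and 7.16. No KO array reached a WT array, a lack of overlap shared by 3.63% of all genes with TNBS and 5.56% without, and the WT groups overlapped between 6.77 and 7.16.

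Ordered by mean, Tnfrsf12a was highest in WT with TNBS (7.35 ± 0.51, SD, n = 6), then WT without TNBS (6.65 ± 0.52, n = 5), KO without TNBS (4.11 ± 0.06, n = 5) and KO with TNBS (4.06 ± 0.11, n = 7). The last pair did not differ beyond its spread (log2 fold change -0.05 ± 0.21, SE, limma adjusted p = 1). KO colon was 9.78-fold lower with TNBS (adjusted p = 9.3e-09) and 5.8-fold lower without it (adjusted p = 2.2e-06, both limma). All KO values lay below log2 5, so the size of these folds depends on the treatment of low values: with values below log2 5 set to 5, the log2 differences were -2.35 (adjusted p = 5.1e-07) and -1.65 (adjusted p = 0.00039) in place of -3.29 and -2.54. The labels do not say which part of the gene the allele lacks, and a probe set outside that part would not check the knockout. The second probe set gave -3.31 ± 0.19 with TNBS and -2.67 ± 0.22 without.

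TNBS raised Tnfrsf12a in WT colon by 0.70 ± 0.21 on the log2 scale (limma adjusted p = 0.029). Over the arrays left out in turn the value stayed between 0.50 and 0.83, but the call was not always kept. It was lost without WT replicate 1 (0.70, adjusted p = 0.059), without WT replicate 2 (0.50, 0.095) and without WT replicate 4 (0.67, 0.064). It was also lost without WT_TNBS replicate 4 (0.67, 0.055), without WT_TNBS replicate 6 (0.52, 0.058), and in a fit of the 2 WT groups alone (0.70, 0.17). The second probe set differed by 0.62 ± 0.21 and did not pass over all probe sets (adjusted p = 0.065). The test of the difference between genotypes gave -0.75 ± 0.30 (adjusted p = 0.2).

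Markers of squamous epithelium moved with TNBS as well. It raised 1 of 5 in KO colon (4.08% of all genes) and 2 of 5 in WT colon (10.2%). Their mean log2 signal ranged from 4.48 to 7.84 in KO with TNBS, 2.77 to 5.83 in KO without, 4.81 to 7.07 in WT with TNBS and 2.55 to 4.61 in WT without. WT_TNBS replicates 4 and 6, the highest of their group in Tnfrsf12a at 7.52 and 8.25, were also its highest in these markers, at 7.01 and 7.07. Replicate 6 was the highest of its group in neutrophil markers too, at 6.02 where the others had 3.90 to 4.76. Other WT arrays did not all follow the squamous order. WT_TNBS replicate 1, lowest of its group in squamous markers at 4.81, had 7.10 in Tnfrsf12a, and replicate 3, at 6.73, had 7.15. Without TNBS, WT replicate 3 had the lowest squamous mean, 2.55, and 7.06 in Tnfrsf12a. WT replicate 2 was low in both, at 2.84 and 5.86, and WT replicate 5 was high in both, at 4.56 and 7.16. The part of these cells in the Tnfrsf12a result was not tested.

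Cd40 encodes the costimulatory receptor of B cells, dendritic cells and macrophages, which also signals through NIK. In KO colon with TNBS its lowest value was 5.65, the median 6.99 and the highest 7.46, and the 5 KO arrays without TNBS had 6.68, 6.62, 5.75, 5.94 and 5.85. In WT colon with TNBS the lowest was 7.59, the median 7.80 and the highest 8.24, and the 5 WT arrays without TNBS had 6.54, 6.55, 6.25, 5.98 and 6.84. Every WT array with TNBS thus lay above every other array, where 3.63% of all genes had no overlap between KO and WT with TNBS and 10.1% had none between WT with and without TNBS. The KO groups overlapped, because replicate 7 of KO with TNBS was the lowest of all 23.

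By mean, Cd40 was highest in WT with TNBS (7.85 ± 0.24, SD, n = 6), then KO with TNBS (6.87 ± 0.59, n = 7), WT without TNBS (6.43 ± 0.33, n = 5) and KO without TNBS (6.17 ± 0.44, n = 5). The first pair of neighbours did not overlap, and the other pairs did. With TNBS, KO colon was 1.97-fold lower than WT colon (log2 fold change -0.98 ± 0.24, SE, limma adjusted p = 0.012), and over the arrays left out in turn the value stayed between -1.08 and -0.77. Without TNBS the genotypes differed by -0.27, with a 95% interval of -0.83 to 0.30 (adjusted p = 0.72).

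In KO colon, Cd40 differed with TNBS by 0.70 ± 0.25 and did not pass (adjusted p = 0.09, limma). It passed without KO_TNBS replicate 7 (0.90, adjusted p = 0.0055) and among probe sets averaging above log2 5 (0.70, adjusted p = 0.048). The difference between the genotypes' effects was -0.71, with a 95% interval of -1.46 to 0.04 (adjusted p = 0.35), and without KO_TNBS replicate 7 it was -0.51 (adjusted p = 0.41).

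In WT colon TNBS raised Cd40 2.66-fold (log2 fold change 1.41 ± 0.26, SE, limma adjusted p = 0.00086), with no overlap between the groups. Both other Cd40 probe sets rose in WT colon, by 1.57 ± 0.39 and 1.49 ± 0.32. With TNBS they were lower in KO than in WT by -1.15 ± 0.36 (adjusted p = 0.052 over all probe sets) and -1.09 ± 0.30 (adjusted p = 0.027), so that 1 of these 2 passed.

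Markers of the cells that carry CD40 moved in the same comparisons. Of 7 dendritic cell markers, 4 were lower in KO than in WT with TNBS, where 6.72% of all genes were lower. Only Itgax and Zbtb46 of the 7 averaged above log2 5, and the other 5 (Ccr7 at 3.72, Flt3 at 2.41, Batf3 at 2.31, Cd209a at 2.28 and Xcr1 at 2.17) lay low, so the mean of the list is made up mostly of low values. Their mean log2 signal ranged from 3.16 to 3.74 in KO with TNBS, 3.23 to 3.46 in KO without and 3.45 to 3.71 in WT without, and all WT arrays with TNBS lay higher, up to 4.39. Of 8 macrophage markers, 6 were lower and 1 higher in KO than in WT with TNBS, where 3.73% of all genes were higher. Their mean ranged from 8.19 to 9.12 in KO with TNBS, 7.62 to 8.41 in KO without, 9.03 to 9.61 in WT with TNBS and 8.28 to 8.59 in WT without.

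Of 7 B cell markers, 0 passed between KO and WT with TNBS or without it (limma), with 0 at an unadjusted p under 0.05 and 0 with the trend and robust options in both. Their mean ranged from 4.76 to 6.76 in KO with TNBS, 4.66 to 5.88 in KO without, 5.94 to 6.87 in WT with TNBS and 4.68 to 6.07 in WT without. With TNBS, 2 of the 7 rose in KO colon (4.08% of all genes) and 3 rose in WT colon (10.2%). Pax5 of the B cell list averaged 2.17, as Xcr1 did, the lowest value of the series. Replicate 7 of KO with TNBS, the array lowest in Cd40, had a B cell mean of 4.76 where the others of its group had 5.65 to 6.76, and a dendritic cell mean of 3.16 where they had 3.56 to 3.74. Its low values were not limited to cells that carry CD40. It was also the lowest of its group in markers of macrophages (8.19), T cells (4.99), neutrophils (3.14), fibroblasts (10.97), endothelium (5.04) and squamous epithelium (4.48). In markers of colon epithelium it was the highest (13.24). The part of these cells in the Cd40 result was not tested, nor was it for the TNBS effects on Birc3 and Nfkbia below.

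Among the adaptors, Traf2 encodes the TRAF protein that joins cIAPs to receptors and to the NIK complex. It was 5.01 at the lowest, 5.21 at the median and 5.35 at the highest in KO colon with TNBS, and 5.87, 5.42, 5.17, 5.17 and 5.35 in KO colon without. In WT colon it was 5.35, 5.55 and 5.95 at the lowest, median and highest with TNBS, and 5.22, 5.35, 5.27, 5.46 and 5.37 without. With TNBS the genotypes met at 5.35, and the other 5 WT arrays lay above all 7 KO arrays. By mean, WT with TNBS (5.61 ± 0.25, SD) came first, then KO without TNBS (5.39 ± 0.28), WT without TNBS (5.33 ± 0.09) and KO with TNBS (5.21 ± 0.14), and all neighbours overlapped.

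With TNBS, Traf2 was 1.32-fold lower in KO than in WT (log2 fold change -0.40 ± 0.11, SE, limma adjusted p = 0.025). The call was lost without WT_TNBS replicate 4 (-0.35, adjusted p = 0.063), without WT_TNBS replicate 6 (-0.34, 0.068), without KO_TNBS replicate 2 (-0.37, 0.054) and without KO_TNBS replicate 6 (-0.37, 0.05). TNBS gave -0.19 ± 0.12 in KO colon (adjusted p = 0.39) and 0.28 ± 0.12 in WT colon (adjusted p = 0.14). Traf2 had a single probe set. WT_TNBS replicates 4 and 6, its highest arrays at 5.86 and 5.95, are those named above as highest of their group in squamous markers. Other arrays did not follow this order. KO_TNBS replicates 2 and 6, lowest in Traf2 at 5.02 and 5.01, had squamous means of 7.83 and 7.48. KO_TNBS replicates 4 and 7 both had 5.35 in Traf2, with the highest and the lowest squamous mean of their group, 7.84 and 4.48. WT_TNBS replicate 3, lowest of its group in Traf2 at 5.35, had a squamous mean of 6.73. Of the 5 squamous markers, 0 passed between KO and WT with TNBS by limma, with 0 at an unadjusted p under 0.05 and 0 with the trend and robust options. The part of these cells in the Traf2 result was not tested.

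Traf1, an adaptor that NF-kappaB is known to induce, passed no comparison. It averaged 6.34 ± 0.08 in KO with TNBS, 6.61 ± 0.42 in KO without, 6.50 ± 0.22 in WT with TNBS and 6.31 ± 0.38 in WT without (SD). Between KO and WT with TNBS the 95% interval was -0.48 to 0.18. Its second probe set had group means of 3.07 to 3.30 and passed none either.

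Birc3 encodes cIAP2, a ubiquitin ligase of the NIK complex and a known NF-kappaB target. In KO colon it was 9.82 at the lowest, 10.05 at the median and 10.29 at the highest with TNBS, and 9.87, 10.32, 10.24, 10.29 and 9.92 without. WT colon had 10.12, 10.25 and 10.44 at the lowest, median and highest with TNBS, and 10.00, 10.02, 9.69, 9.71 and 9.76 without. The WT groups did not overlap, as in 10.1% of all genes, and the KO groups overlapped. By mean the order was WT with TNBS (10.25), KO without TNBS (10.13), KO with TNBS (10.08) and WT without TNBS (9.84), with overlap between neighbours.

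In KO colon TNBS gave a log2 fold change of -0.04 for Birc3, with a 95% interval of -0.25 to 0.16 (limma adjusted p = 0.98). In WT colon it raised Birc3 1.33-fold (log2 fold change 0.41 ± 0.10, SE, adjusted p = 0.0074). The difference of these effects was -0.46 ± 0.14 and did not pass (adjusted p = 0.095). Without TNBS, Birc3 was 10.13 ± 0.21 in KO colon and 9.84 ± 0.16 in WT colon (SD, n = 5 each), a difference of 0.29 ± 0.11 (adjusted p = 0.12). The second Birc3 probe set gave 0.24 ± 0.17 with TNBS in WT colon (adjusted p = 0.45 over all probe sets).

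Map3k14, the gene of NIK, was close to the lowest value of the series. Its main probe set lay within 0.2 of its own lowest value, 2.50, on 20 of 23 arrays, and the second on all 23. It reached 2.92 and 3.04 on WT_TNBS replicates 4 and 5. Group means were 2.59 ± 0.05 in KO with TNBS, 2.62 ± 0.08 in KO without, 2.72 ± 0.20 in WT with TNBS and 2.56 ± 0.04 in WT without (SD). No comparison passed. TNBS gave 0.15 in WT colon, with a 95% interval of 0.01 to 0.30 (limma, unadjusted p = 0.037, adjusted p = 0.15), and differences this close to the lowest value are understated.

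Among the subunits, Nfkb2 encodes p100, the precursor of p52. Its gene has 3 annotated starts in the RefSeq table of build GRCm38.p6. The promoter sequences are shown because NF-kappaB is known to drive this gene. Each was searched on both strands for the degenerate kappaB consensus of 10 letters, with capitals marking matches. The 250 bases before start 1, plus strand, at chr19:46304487-46304736, held 3 matches, of which the first and second overlap. Start 3 had a match 225 bases before it, shown with its flanks at chr19:46305695-46305724, plus strand.
Nfkb2, start 1: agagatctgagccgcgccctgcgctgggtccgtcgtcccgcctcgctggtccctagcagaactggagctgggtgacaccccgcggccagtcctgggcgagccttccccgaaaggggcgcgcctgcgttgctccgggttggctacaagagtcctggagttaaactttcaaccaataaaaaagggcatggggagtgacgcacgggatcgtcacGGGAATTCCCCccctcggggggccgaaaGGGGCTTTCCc
Nfkb2, start 3: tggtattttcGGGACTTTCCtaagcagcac

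The 2 probe sets of Nfkb2 disagreed. The main one had group means of 6.78 ± 0.20 in KO with TNBS, 6.72 ± 0.14 in KO without, 6.56 ± 0.16 in WT with TNBS and 6.78 ± 0.24 in WT without (SD). It passed no comparison. TNBS gave 0.07 ± 0.11 in KO colon (SE, limma adjusted p = 0.89) and -0.22 ± 0.11 in WT colon (adjusted p = 0.24). After median centring of the arrays the WT value was -0.38 and passed (adjusted p = 0.014). That centring shifted the median of all genes by -0.17 in this comparison and called 11471 genes, so this call is not particular to Nfkb2.

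The second Nfkb2 probe set had 5.84, 5.98 and 6.03 at the lowest, median and highest in KO colon with TNBS, and 6.16, 6.10, 5.94, 5.97 and 5.95 in KO colon without. In WT colon it had 5.99, 6.44 and 6.56 at the lowest, median and highest with TNBS, and 5.88, 5.99, 5.89, 5.88 and 6.19 without. Of the 6 WT arrays with TNBS, 5 lay at 6.19 or above, a level that no KO array reached. WT_TNBS replicate 3, at 5.99, lay among the others. By mean the order was WT with TNBS (6.35), KO without TNBS (6.02), WT without TNBS (5.97) and KO with TNBS (5.94), with overlap between neighbours.

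With TNBS, the second Nfkb2 probe set was 1.33-fold lower in KO colon (5.94 ± 0.07, SD, n = 7) than in WT colon (6.35 ± 0.22, n = 6; log2 fold change -0.41 ± 0.08, SE, adjusted p = 0.0027 over 45101 probe sets, limma). TNBS gave -0.08 ± 0.08 in KO colon (adjusted p = 0.75) and 0.39 ± 0.09 in WT colon (adjusted p = 0.0055). The difference of these effects was -0.47 ± 0.12 (adjusted p = 0.061). It passed without WT replicate 5 (-0.52, adjusted p = 0.037), without WT_TNBS replicate 1 (-0.50, 0.043) and without WT_TNBS replicate 3 (-0.54, 0.016). In 20 of the 23 omissions of 1 array it did not pass, with a limma adjusted p of up to 0.12. These omissions were added after seeing the data, so the difference is not shown. The sources used here do not say which transcripts of Nfkb2 each probe set reads.

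Relb encodes the partner of p52. In KO colon it was 7.18 at the lowest, 7.41 at the median and 7.57 at the highest with TNBS, and 7.55, 7.42, 7.53, 7.49 and 7.38 without. WT colon had 7.23, 7.39 and 7.46 at the lowest, median and highest with TNBS, and 7.07, 7.36, 7.14, 7.32 and 7.22 without. The groups without TNBS did not overlap, as in 5.56% of all genes, but the lowest KO value, 7.38, was close to the highest WT value, 7.36. By mean the order was KO without TNBS (7.47), KO with TNBS (7.41), WT with TNBS (7.36) and WT without TNBS (7.22), with overlap between neighbours.

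Without TNBS, Relb was 1.19-fold higher in KO (7.47 ± 0.07, SD, n = 5) than in WT (7.22 ± 0.12, n = 5; log2 fold change 0.25 ± 0.06, SE, limma adjusted p = 0.031). This call was lost with quantile normalization (0.22, adjusted p = 0.068), after median centring (0.20, 0.17) and in a fit of these 2 groups alone (0.25, 0.082). It was also lost without WT replicate 1 (0.21, 0.092), WT replicate 3 (0.23, 0.066), WT replicate 5 (0.25, 0.059), KO replicate 1 (0.23, 0.061), KO replicate 3 (0.24, 0.069) or KO replicate 4 (0.25, 0.069). With TNBS the genotypes differed by 0.05, with a 95% interval of -0.07 to 0.17 (adjusted p = 0.72). Of the 6 skeletal muscle markers, 2 were likewise higher in KO than in WT without TNBS, where 2.92% of all genes were higher. All 6 had an unadjusted p under 0.05 there (limma), with a median log2 difference of 3.15. With TNBS, 0 of the 6 passed between the genotypes and 3 had an unadjusted p under 0.05, with a median of 1.80. The part of muscle in the Relb, Cd40 and Traf2 results was not tested.

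The inhibitor Nfkbia encodes IkappaB alpha, which holds canonical NF-kappaB in the cytoplasm and is itself a well known target of it. The 250 bases before its start, minus strand, at chr12:55492648-55492897 (RefSeq, GRCm38.p6), held 1 match to the kappaB consensus, 29 bases before the start and on the strand opposite to the gene. It is shown because Nfkbia was the member that rose with TNBS in KO colon.
Nfkbia: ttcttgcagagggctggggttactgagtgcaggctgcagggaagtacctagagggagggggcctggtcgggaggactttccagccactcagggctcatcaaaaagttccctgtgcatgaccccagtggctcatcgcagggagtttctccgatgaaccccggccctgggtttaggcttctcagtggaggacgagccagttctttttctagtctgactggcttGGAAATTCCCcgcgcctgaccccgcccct

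Promoter windows of 8 of the 10 members were searched, 10 windows in all, and not those of Cd40 and Relb. The consensus occurred in 5 of the 10, those of Nfkbia, of Traf3 and of the 3 starts of Nfkb2, and in 3.9% of 32851 windows of the same length over all genes. The windows of Tnfrsf12a, Traf1, Traf2, Map3k14 and Birc3 held no match, which says only that these letters are not in these 250 bases. A match describes the sequence and is not a measured binding site.

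**Figure D3:**
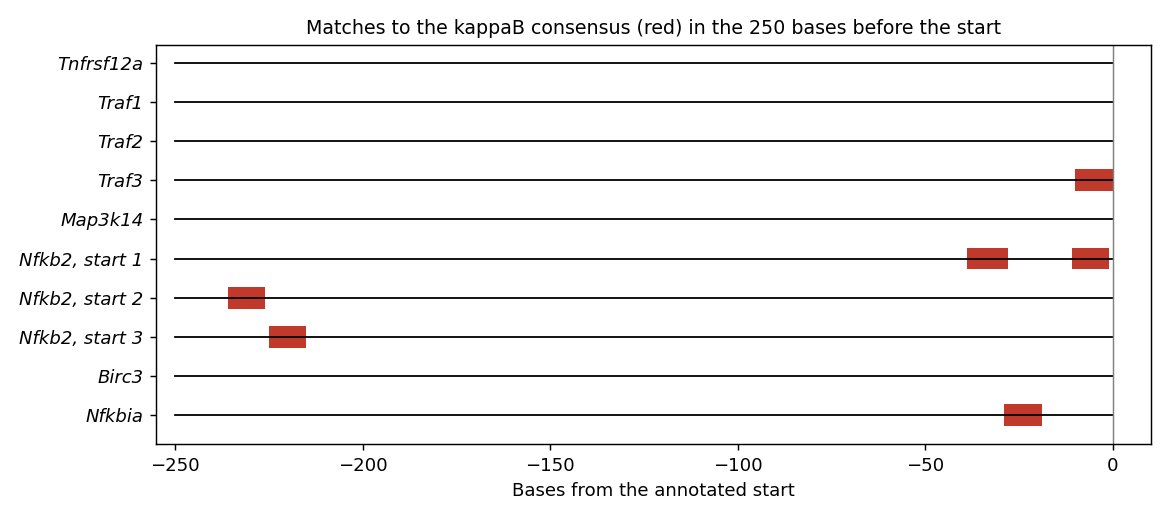
Matches to the kappaB consensus (red) in the 250 bases before the annotated start, 1 line per start, with distance from the start in bases on the horizontal axis. Nfkb2 has matches before all 3 of its starts, Nfkbia 1 match 29 bases before its start, and Traf3 1 match at its start.

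Nfkbia was 12.55 at the lowest, 12.61 at the median and 12.77 at the highest in KO colon with TNBS, and 12.42, 12.45, 12.44, 12.46 and 12.48 in KO colon without. WT colon had 12.55, 12.72 and 12.84 at the lowest, median and highest with TNBS, and 12.52, 12.61, 12.51, 12.52 and 12.76 without. The KO groups did not overlap, as in 3.87% of all genes, and the WT groups did. Without TNBS every KO array lay below every WT array, as in the 5.56% of all genes whose genotypes did not overlap in either direction. By mean the order was WT with TNBS (12.72 ± 0.10, SD), KO with TNBS (12.63 ± 0.07), WT without TNBS (12.59 ± 0.10) and KO without TNBS (12.45 ± 0.02), with overlap between neighbours other than the last pair.

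TNBS raised Nfkbia 1.13-fold in KO colon (log2 fold change 0.18 ± 0.05, SE, limma adjusted p = 0.024). The call was lost without KO replicate 3 (0.18, adjusted p = 0.055) and after median centring (0.15, 0.083). In WT colon TNBS gave 0.13 ± 0.05 (adjusted p = 0.07), which passed without WT replicate 5 (0.18, 0.012), without WT_TNBS replicate 3 (0.17, 0.017) and as the mean of its probe sets (0.19, 0.0087). The difference of the effects was 0.04, with a 95% interval of -0.10 to 0.19 (adjusted p = 0.85).

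The other 4 Nfkbia probe sets differed with TNBS by 0.21 to 0.37 in KO colon, where 3 of 4 passed, and by 0.10 to 0.28 in WT colon, where 3 of 4 passed, over all probe sets. One of them averaged 11.64 ± 0.08 in KO and 11.83 ± 0.06 in WT without TNBS (SD, n = 5 each) and was lower in KO by -0.20 ± 0.05 (SE, adjusted p = 0.033). The rest of them did not pass there. They differed by -0.18 ± 0.05 (limma adjusted p = 0.056 over all probe sets), -0.11 ± 0.07 (0.54) and 0.00 ± 0.07. On the main probe set the difference between KO and WT without TNBS was -0.14 ± 0.05 (adjusted p = 0.14).

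Counted by probe set, 6 of the 20 were lower in KO than in WT with TNBS, where 8.80% of 45101 probe sets were called in either direction. Without TNBS, 1 was higher and 3 were lower (3.31% called). Both probe sets of Tnfrsf12a, the gene knocked out, are among those lower in KO, with TNBS and without. TNBS raised 4 of 20 in KO colon (5.33% called) and 9 of 20 in WT colon (11.2% called). The difference of the effects was passed by 0 (1.16% called). Probe sets of 1 gene read the same RNA and are not independent of each other. All 4 that rose in KO colon were of Nfkbia. Among the 9 that rose in WT colon, 3 were of Nfkbia and 3 of Cd40.

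**Figure D4:**
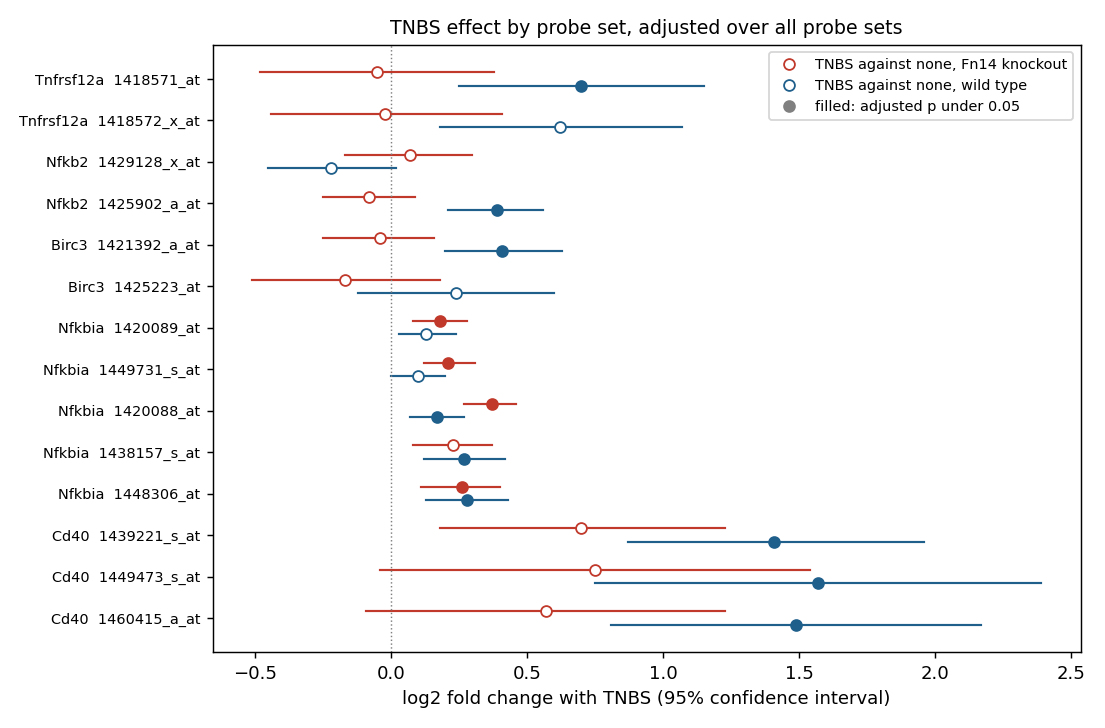
Log2 fold change with TNBS and its 95% confidence interval for each probe set of Tnfrsf12a, Nfkb2, Birc3, Nfkbia and Cd40, in KO (red, upper) and WT (blue, lower); filled points had an adjusted p under 0.05 over 45101 probe sets. The 3 Cd40 probe sets lie at 1.41 to 1.57 in WT, the 5 Nfkbia probe sets are above 0 in both genotypes, and the 2 Nfkb2 probe sets lie on opposite sides of 0 in WT.

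Other genes of the pathway were counted in 4 lists. Of 13 measured ligands and receptors, 4 were lower in KO than in WT with TNBS (6.72% of all genes) and 9 did not pass. They were Tnfrsf1b, a TNF receptor (8.20 ± 0.06 in KO and 8.81 ± 0.13 in WT, SD), Tnfsf11, the cytokine RANKL (3.95 ± 0.71 and 5.65 ± 0.75 in the same order), Tnfsf13b, the B cell survival factor BAFF (8.29 ± 0.26 and 8.80 ± 0.16), and Cd163, a macrophage scavenger receptor described to bind TWEAK (8.63 ± 0.61 and 9.66 ± 0.50). The median difference was -0.14 over the list and 0.00 over all genes. Tnfrsf1b was also lower in KO without TNBS, by -0.42 ± 0.10 (SE, limma adjusted p = 0.021).

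TNBS raised 3 of the 13 ligands and receptors in KO colon and 8 in WT colon, where it raised 4.08% and 10.2% of all genes in the same order, and lowered none. The list's median TNBS effect was 0.19 in KO and 0.34 in WT, and that of all genes 0.00. Cd163 rose by 1.27 ± 0.31 in KO and 1.57 ± 0.32 in WT (log2, SE), and Tnfrsf13c, the BAFF receptor of B cells, by 1.47 ± 0.38 in KO and 1.34 ± 0.39 in WT. Tnfsf13b gave 0.28 ± 0.12 in KO, where it did not pass, and rose by 0.86 ± 0.12 in WT. Tnfsf11 gave 0.30 ± 0.36 in KO, where it did not pass, and rose by 1.45 ± 0.38 in WT. The TNF receptor genes were Tnfrsf1b, which rose by 0.31 ± 0.09 in KO and 0.49 ± 0.10 in WT, and Tnfrsf1a, which gave 0.14 ± 0.08 in KO without passing and rose by 0.34 ± 0.08 in WT. Of 8 macrophage markers, 5 rose with TNBS in KO colon, and in WT colon 7 rose and 1 fell. The part of macrophages in these changes was not tested.

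Lymphoid chemokines and other targets ascribed to the noncanonical pathway numbered 7 measured genes. With TNBS, 3 were lower in KO than in WT: Ccl22, a chemokine of dendritic cells and macrophages (-0.91 ± 0.16, SE, limma adjusted p = 0.0013), Cxcl13, which attracts B cells to follicles (-0.97 ± 0.26, adjusted p = 0.023), and the stromal chemokine Cxcl12 (-0.39 ± 0.12, adjusted p = 0.041). In this comparison 6.72% of all genes were lower. The median difference was -0.39 over the list and 0.00 over all genes. TNBS called 0 of the 7 in KO colon by limma, with 2 at an unadjusted p under 0.05 and 0 with the trend and robust options. In WT colon 3 rose, Ccl22 by 1.05 ± 0.17, Cxcl12 by 0.49 ± 0.13 and Madcam1, the addressin of gut vessels, by 0.69 ± 0.20. Ccl22 was near the lowest value, at 2.47 ± 0.20 in KO and 2.78 ± 0.14 in WT without TNBS (SD), so its differences are understated. TNBS raised 4.08% of all genes in KO colon and 10.2% in WT colon. The list's median TNBS effect was 0.35 in KO and 0.49 in WT.

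Markers of fibroblasts and endothelium moved in the same comparisons as these chemokines. With TNBS, 2 of 6 fibroblast markers and 1 of 5 endothelial markers were lower in KO than in WT (6.72% of all genes). TNBS raised 3 fibroblast markers and 1 endothelial marker in KO colon (4.08% of all genes), and 3 of each in WT colon (10.2%). The fibroblast mean ranged from 10.97 to 11.43 in KO with TNBS, 10.51 to 11.03 in KO without, 11.24 to 11.76 in WT with TNBS and 10.94 to 11.24 in WT without. The endothelial mean ranged from 5.04 to 5.36, 4.81 to 5.19, 5.36 to 5.69 and 4.91 to 5.17 in the same order of groups. Dendritic cell and macrophage markers were lower in KO with TNBS as given with Cd40, and the part of these cells in the chemokine results was not tested.

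Of 12 adaptors and kinases, TNBS called 0 in KO colon by limma (2 at an unadjusted p under 0.05, 0 with the trend and robust options) and raised 3 in WT colon. Those were Traf5, a TRAF adaptor, by 0.57 ± 0.14, Ikbkb, which encodes IKK beta, by 0.24 ± 0.06, and Birc2, which encodes cIAP1, by 0.24 ± 0.07 (SE). Among all genes TNBS raised 4.08% in KO colon and 10.2% in WT colon. The list's median TNBS effect was -0.02 in KO and 0.05 in WT, and that of all genes 0.00. Tab2, an adaptor of the kinase TAK1, was higher in KO than in WT by 0.11 ± 0.03 with TNBS and 0.16 ± 0.03 without. It was the only call of this list in either genotype comparison, where 3.73% and 2.92% of all genes were higher in the same order.

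Of 10 other subunits and inhibitors, TNBS called 0 in KO colon by limma (4 at an unadjusted p under 0.05, 0 with the trend and robust options). Among all genes it raised 4.08% and lowered 4.47% there. In WT colon 3 rose and 1 fell. Nfkbie, which encodes IkappaB epsilon, rose by 0.63 ± 0.14, Rela, which encodes p65, by 0.23 ± 0.06 and Nfkbid by 0.26 ± 0.09, while Nfkbiz, which encodes the nuclear protein IkappaB zeta, fell by 0.48 ± 0.09 (SE). In WT colon TNBS raised 10.2% and lowered 6.27% of all genes. The list's median TNBS effect was 0.12 in KO and 0.21 in WT. With TNBS, Nfkbiz was higher in KO (10.51 ± 0.18, SD) than in WT (10.11 ± 0.05, limma adjusted p = 0.0053), where 3.73% of all genes were higher. Nfkbie was lower in KO (8.04 ± 0.27) than in WT (8.48 ± 0.14, limma adjusted p = 0.03), where 6.72% of all genes were lower.

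The difference between the genotypes' TNBS effects was passed by 0 genes of all 4 lists by limma and by 0 with the trend and robust options. By limma 2.00% of all genes passed it. At an unadjusted p under 0.05 it had 2 of 13 ligands and receptors, 3 of 12 adaptors and kinases, 0 of 10 subunits and inhibitors and 1 of 7 chemokines and targets. Not measured by a probe set of their own were Tnfsf12, the gene of TWEAK, Ripk1, Chuk, Nfkb1, Ccl19 and Ccl21a.

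**Figure D5:**
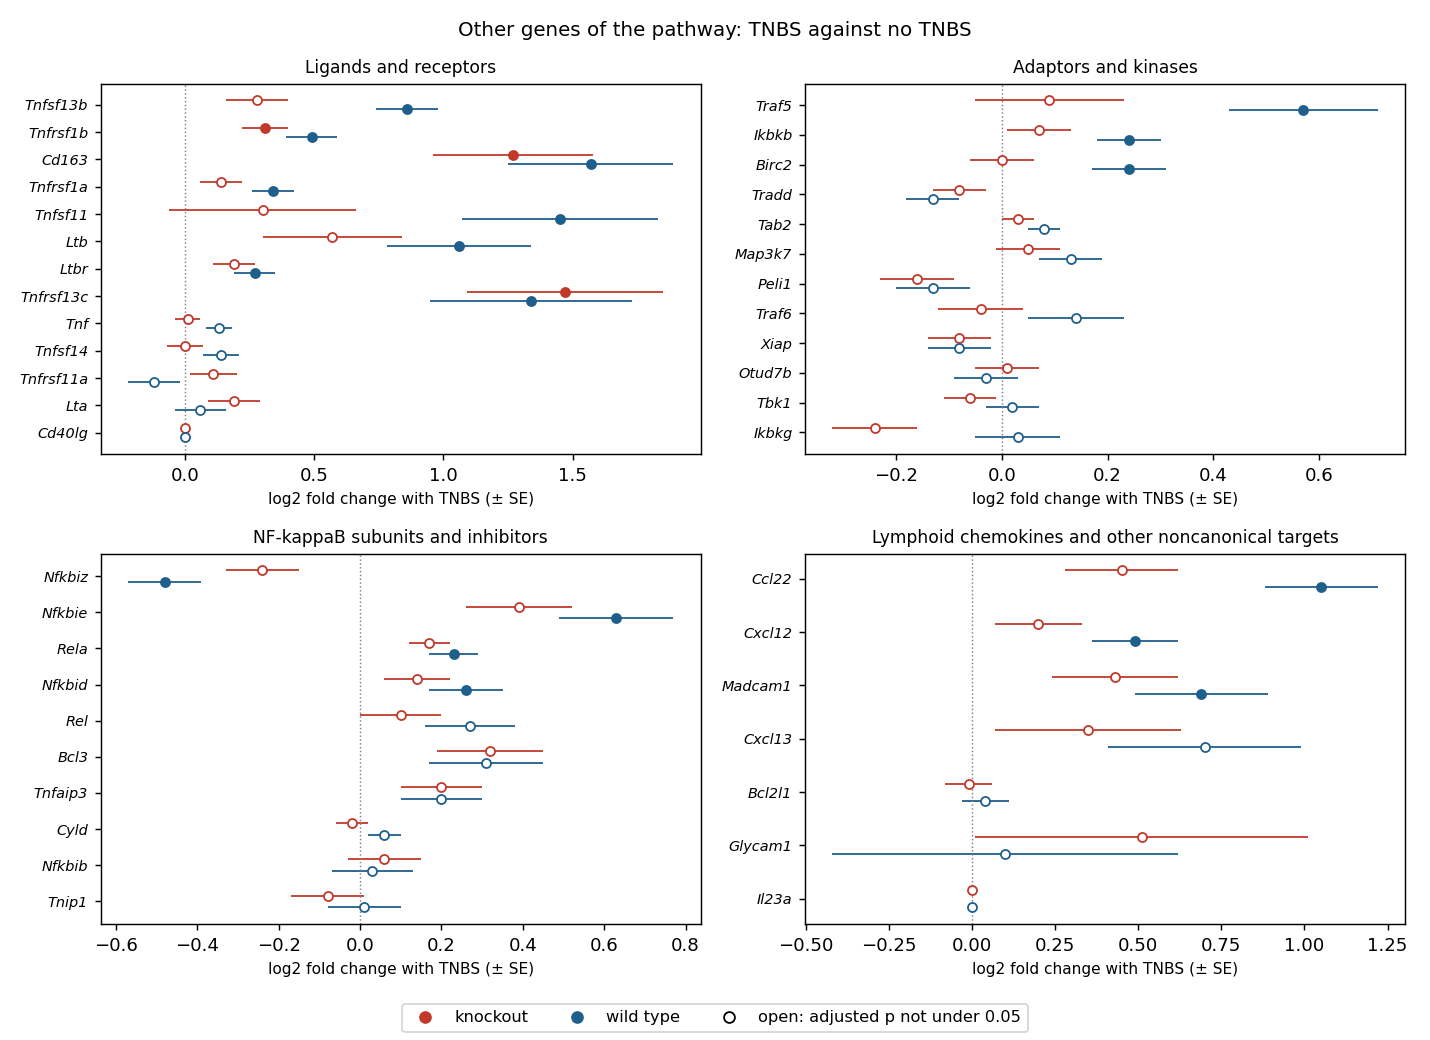
Log2 fold change with TNBS (± SE) of the other pathway genes in 4 lists, in KO (red) and WT (blue); filled points had an adjusted p under 0.05. Filled points number 3 in KO, all ligands or receptors, and 18 in WT, of which Nfkbiz alone lies below 0.

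Genes whose pattern was most like a member's were ranked by the root mean square difference over 23 arrays of log2 values, each gene taken from its own mean. For Tnfrsf12a, which itself varied with an SD of 1.56, the nearest were Ch25h (0.98), an immunoglobulin kappa variable gene (0.99) and Kctd5 (1.00), so that no gene lay close to it. Kctd5 is on chromosome 17, as Tnfrsf12a is. It averaged 7.26 in KO with TNBS, 7.44 in KO without, 8.38 in WT with TNBS and 8.72 in WT without. The part of its position in this pattern was not tested. For Cd40, with an SD of 0.76, they were Rasgrp1 (0.19), Ptprc (0.20) and Nxpe3 (0.21). Ptprc, which encodes the leukocyte antigen CD45, averaged 9.68 in KO with TNBS, 8.87 in KO without, 10.26 in WT with TNBS and 9.14 in WT without. Rasgrp1 averaged 6.61, 5.64, 7.45 and 6.05 in the same order of groups.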

How the data were processed

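RNA of 23 colon samples was hybridised to 1 Affymetrix array each. Log2 signals of 45101 probe sets were deposited by the authors. RMA and GCRMA are named per the submitters' processing notes. The version, and which of them made these values, are not given in the sources used here. Both methods pull dim probe sets toward a lowest value, which compresses their differences.

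Groups came from the sample titles. Gene names came from the 2016 platform annotation (34958 to 1 gene, 932 to several, 9211 unnamed), and gene IDs of 34754 matched RefSeq genes (GRCm38.p6), the source of symbols and promoter windows. Only probe sets of 1 gene were used. For each of 18194 genes the probe set of highest mean was taken.

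All arrays were fitted together with limma 3.58.1 (R 4.3.3), 4 groups, no covariates, 19 residual and 0.475 prior degrees of freedom. The 5 contrasts were the TNBS effect in KO and in WT, KO against WT in each TNBS state, and the KO minus the WT effect of TNBS. P-values are two-sided and Benjamini-Hochberg adjusted over all genes (for single probe sets, over all probe sets), with a threshold of 0.05. The fit was tested on simulated data with known shifts. No pair of arrays held identical values.

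The members and the lists of pathway genes and cell markers were chosen with earlier results of these data known. The text names the members, up to 4 genes per pathway list and comparison with the smallest p, those that a count of 5 or fewer refers to, and the 3 genes most like Tnfrsf12a and most like Cd40, the member with the largest TNBS change in WT. Alternatives were a floor at log2 5, the compared groups alone, trend and robust options in limma, a filter on probe sets averaging above log2 5, quantile normalization, median centring, the mean of a gene's probe sets, every probe set, a block for the replicate number, and omission of single arrays. Leaving out each array for the second Nfkb2 probe set was added after seeing the data. Tables were read with version 1.17.8 of data.table, and figures were drawn with Python 3.11.15 and matplotlib 3.10.9.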

Additional observations from a re-analysis of the deposited data

Results flagged for a closer look

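In each group of the 9 measured members, the highest and the lowest array were compared with the rest, and an array was singled out where its gap to the nearest other array was large against the range of its group. Of 36 groups tested 5 had such an array. Chance alone gives about 1 in 20, but this rate does not hold where the other values are tied, as for Map3k14 below. The groups also share arrays, so 5 of 36 is not shown to exceed chance.

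Cd40 was 5.65 on KO_TNBS replicate 7, against 6.76 to 7.46 on the other 6 arrays of that group. Tnfrsf12a was 3.84 on KO_TNBS replicate 5, against 4.03 to 4.17 on the others. Map3k14 accounted for the other 3, at 2.68 on KO_TNBS replicate 4 (2.53 to 2.59 on the others), 2.77 on KO replicate 5 (2.58 on all the others) and 2.50 on WT replicate 3 (2.58 on all the others). These values of Map3k14 lie close to the lowest value of the series, 2.17.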

How the results depend on the processing

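The 45 values of the 9 members were recomputed 1012 times in all under the alternatives. In 981 of these the value kept its direction where it was called and its side of the threshold, in 24 a call was lost and in 7 a call was gained. No called value changed its direction, and 14 uncalled values did. Of the 45 values 38 kept their side throughout. Calls that depended on a setting or an array are given with the gene above, and the cause was not tested.

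Members called with TNBS in KO colon numbered 1, and 2 among probe sets averaging above log2 5, 0 with median centring and 0 to 2 over the arrays left out. Members called between KO and WT without TNBS numbered 2, and 1 with the compared groups alone, with quantile normalization, with median centring, and 1 to 2 over the arrays left out. Members called in WT colon numbered 3, with 2 to 4 over the arrays left out, and those between KO and WT with TNBS 3, with 2 to 3. Tnfrsf12a, the gene knocked out, is counted in both genotype comparisons.

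Of all genes, 1556 were called with TNBS in KO colon, 2998 with TNBS in WT colon, 1902 between KO and WT with TNBS, 879 without TNBS and 363 for the difference of the effects. The compared groups alone gave 856 with TNBS in KO colon and 288 between KO and WT without TNBS. Every probe set on its own gave 2402 with TNBS in KO colon, 5041 in WT colon, 3971 between KO and WT with TNBS and 1492 without. Leaving out arrays gave 1014 to 1835 with TNBS in KO colon (fewest without KO replicate 3), 458 to 923 between KO and WT without TNBS (484 without KO replicate 4, fewest without WT replicate 1) and 213 to 443 for the difference (fewest without KO replicate 4, and 238 without WT replicate 1).

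Median centring shifted the median of all genes by -0.17 with TNBS in WT colon and by 0.14 for the difference of the effects, and it called 11471 and 547 genes there. The share of calls that were higher, in the order TNBS in KO, TNBS in WT, KO against WT with TNBS, KO against WT without and the difference, was 47.8%, 62.0%, 35.7%, 60.4% and 31.1%. It was 38.2%, 11.2%, 70.1%, 33.7% and 80.6% with median centring, and 53.9%, 57.9%, 38.2%, 49.7% and 41.6% with quantile normalization.

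Replicate numbers did not pair the samples: deviations of same-numbered arrays correlated at -0.46 to 0.43, and few arrays correlated best with their own number. With the replicate number as a block, members called were 2 with TNBS in KO colon and 1 between KO and WT without TNBS, and genes called were 1230 between KO and WT with TNBS and 172 for the difference. Under the block Cd40 passed in KO colon (0.96, limma adjusted p = 0.01), and Tnfrsf12a in WT colon (0.61, 0.09), Traf2 with TNBS (-0.43, 0.06) and Relb without TNBS (0.25, 0.058) did not. No other call of a member changed under the block. Signal limits Map3k14 and the second Traf1 probe set, which lie near the lowest values.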
